A study of Mus musculus with 22 samples.

Results

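The cold response of inguinal fat was measured in mice that lack PPARα. Arrays of 5 null mice held at 5 °C were set against arrays of 6 null mice held at 28 °C, and these 11 of the 22 arrays in the series were chosen by their titles. All 22180 genes that have a probe set with 1 gene symbol were described. The other 11 arrays, from 6 wild-type mice at 28 °C and 5 at 5 °C, went through the same exposure and serve to test whether the response differs between genotypes.

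All the mice were males of 3 to 4 months on a C57Bl/6J background, the null line after more than 10 generations of backcrossing. Every group, cold or not, first spent 5 weeks at 28 °C, near thermoneutrality, where a mouse spends little on keeping warm. The cold groups then went through 1 week at 21 °C and 10 days at 5 °C, while the thermoneutral groups stayed at 28 °C. The null mice lack the receptor in every tissue, not in fat alone, and each array is the fat of 1 mouse out of 10 housed per group.

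Inguinal fat is a white depot under the skin in which cold induces beige adipocytes. These cells burn fatty acids and glucose in their mitochondria and release the energy as heat through Ucp1, an uncoupling protein that lets protons return to the matrix without making ATP. The signal comes from sympathetic nerves, whose noradrenaline raises cyclic AMP in the fat cell and, through coactivators such as Ppargc1a, the transcription of mitochondrial genes. PPARα is a nuclear receptor activated by fatty acids that drives genes of fatty acid oxidation, best known from the liver in fasting, and it is also abundant in brown fat.

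Values are log2 expression values, so that a difference of 1 is a 2-fold change in signal. The null arrays resembled each other closely (Pearson r over all genes of 0.968 to 0.989 for any pair), and the number of arrays limits the precision. A gene is said to rise or fall where its Benjamini-Hochberg adjusted p over all 22180 genes was under 0.05 in a limma fit of all 4 groups, and errors of changes are standard errors (SE) of that fit. The p-values measure the spread between mice. Genes are named by the rule given with the processing, and some others for their known roles, chosen after their values were seen. The 8 adipocyte markers averaged 11.12 to 11.30 log2 units on the arrays at 28 °C and 11.04 to 11.28 at 5 °C, where the median over all genes of a null array was 4.64 to 4.75, so the tissue carried the markers its label calls for. Fewer cells of a type and less RNA of a gene per cell cannot be told apart in such whole-tissue samples.

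In null mice 2930 genes (13.2%) passed, 1525 of them higher (6.88%) and 1405 lower (6.33%) in the cold. Increases were larger than decreases: 144 genes rose by more than 1 log2 unit (0.649% of genes) and 19 fell by more than that (0.0857%). On 1119 genes (5.05%) all 5 cold arrays were above all 6 warm arrays, and on 901 (4.06%) all were below. The median change over all genes was −0.0034, and subtracting each array's median first gave 1802 genes higher and 987 lower, so the share of increases among the calls depends on the scaling. Of the genes higher in null mice, 1190 were also higher in wild-type mice, which is 78.0% of the null and 64.3% of the wild-type increases. Of the decreases 999 were shared (71.1% and 54.3%), and 0 genes passed in opposite directions.

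The genes that make an adipocyte thermogenic rose most in null mice. Ucp1 read 12.56, 12.42, 12.25, 12.45 and 12.58 on the 5 cold arrays and 4.99 to 6.47 (median 5.25) on the 6 warm ones. The groups were far apart, with a change of 6.90 (SE 0.25, adjusted p = 2.5e-14). Elovl3, an elongase of very long fatty acids and a classic cold-induced gene of brown fat, read 10.25, 10.08, 9.68, 10.36 and 10.18 in the cold and 2.90 to 3.68 (median 3.39) in the warmth. No array lay between the groups, and the change was 6.77 (SE 0.23, adjusted p = 2.08e-14). Cidea, a lipid droplet protein typical of brown and beige cells, read 11.08, 10.89, 10.67, 11.02 and 11.07 against 7.45 to 9.13 (median 7.92). Its warm arrays were spread wider than its cold ones and stayed below them, for a change of 2.83 (SE 0.25, adjusted p = 4.94e-08).

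Of the 18 measured thermogenic and brown-fat genes 14 rose and 1 fell, with a median change of 2.40 against −0.0034 over all genes, and 14 rose in wild-type mice, where 8.35% of all genes rose and 8.3% fell. Dio2, the deiodinase that makes active thyroid hormone inside the cell, read 6.17, 6.12, 5.80, 6.72 and 5.60 at 5 °C and 3.17 to 4.23 (median 3.53) at 28 °C, all cold arrays being higher, and rose by 2.42 (SE 0.22, adjusted p = 1.04e-07). Otop1, a proton channel, read 8.79, 7.89, 8.04, 8.28 and 8.23 against 4.96 to 6.42 (median 5.77). The order of the cold arrays was not that of Dio2, and all were above the warm ones, for a change of 2.60 (SE 0.25, adjusted p = 2.11e-07). The acyl-CoA thioesterase Acot11 rose by 3.18 (SE 0.16, adjusted p = 1.86e-11), the fatty acid transporter and acyl-CoA synthetase Slc27a2 by 2.68 (SE 0.24, adjusted p = 8.55e-08), the pantothenate kinase Pank1, which starts coenzyme A synthesis, by 2.38 (SE 0.15, adjusted p = 6.38e-10), and Plin5, which ties lipid droplets to mitochondria, by 2.02 (SE 0.17, adjusted p = 3.77e-08). Letmd1, a mitochondrial protein, rose by 1.91 (SE 0.11, adjusted p = 1.08e-10). S100b rose by 1.43 (adjusted p = 2.75e-05). It is expressed in Schwann cells as well as in thermogenic adipocytes, and 1 of 10 Schwann cell and nerve markers rose, S100b itself, while 2 fell, the myelin genes Mbp (−0.38) and Pmp22 (−0.37). The gene that fell was Tmem26 (−0.62, adjusted p = 0.0223), a surface marker of beige adipocytes. Not passing were Fabp3 (0.22), Tnfrsf9 (0.17) and Cited1 (0.06), of which the last 2 have been used as beige markers. Among 4 genes that mark classical brown rather than beige adipocytes, Lhx8 fell (−0.49), and Zic1 (0.14), Epsti1 (−0.50) and Eva1a (−0.09) did not pass. With 1 array left out, Tmem26 did not pass without cold replicate 1 or 2 or warm replicate 1 or 2 (adjusted p 0.0532 to 0.078). Averaging probe sets gave Dio2 a change of 1.41 and Slc27a2 a change of 1.40.

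**Figure D1:**
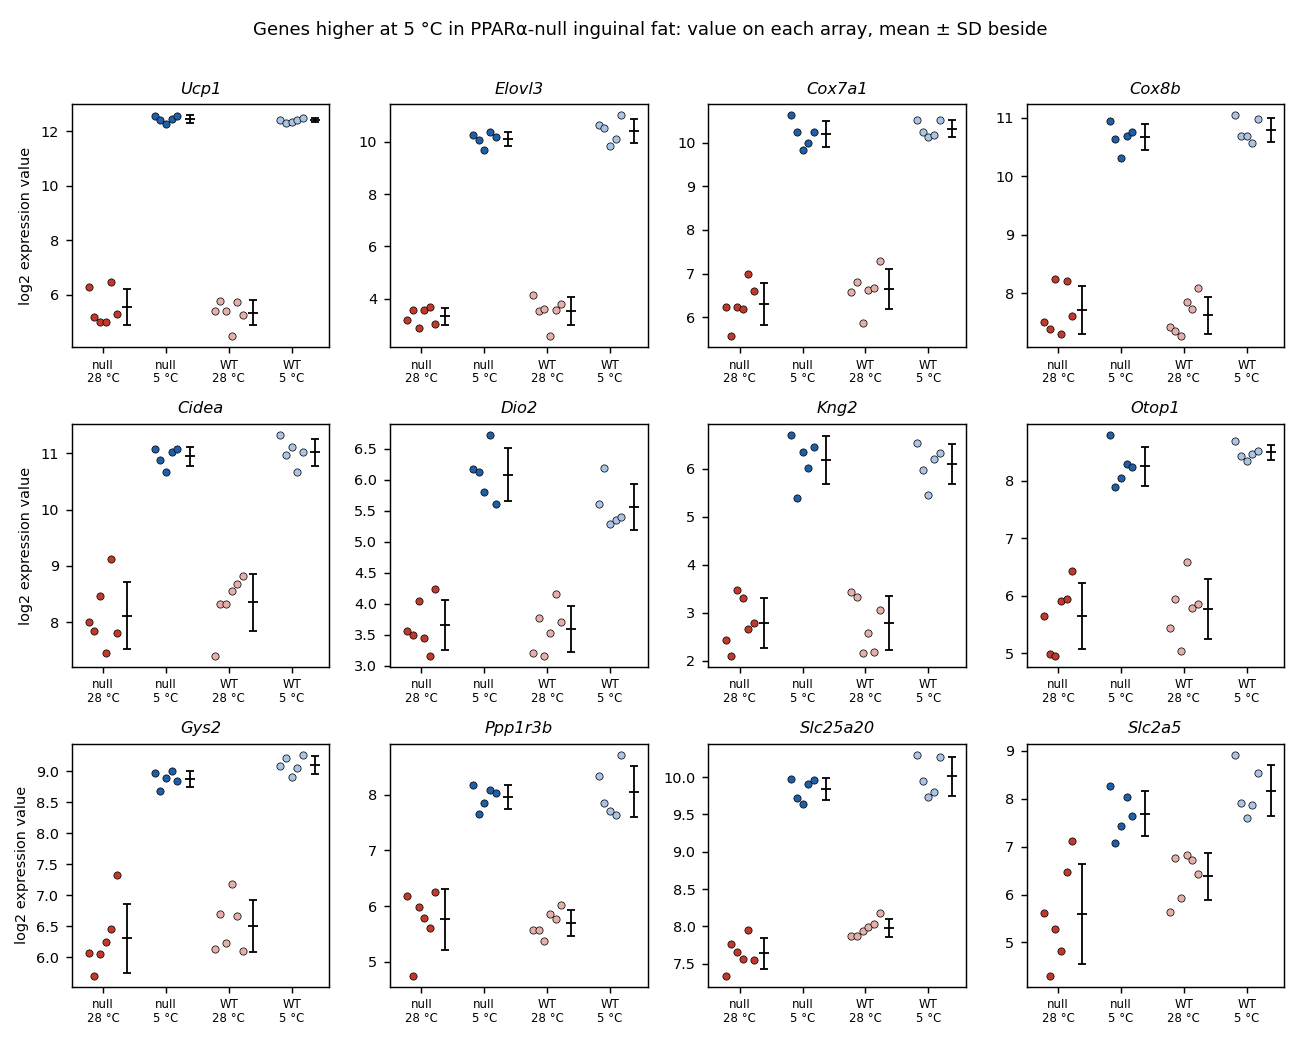
Values of 12 genes on every array (log2 expression, vertical axes scaled to each gene), with null mice in dark and wild-type (WT) mice in pale colours and the mean ± SD beside each group (n = 6 at 28 °C and n = 5 at 5 °C). In null mice the cold and warm arrays do not overlap for 11 of the 12 genes, and for Slc2a5 a warm array at 7.12 reaches above the lowest cold array at 7.09.

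Promoter sequence was available for 16 of the 20 genes with the largest increases. Only 1 window per gene, the first listed, was searched here, and 13 of the 16 held none of the 6 motifs. Shown are the 3 that held 1, chosen for that, and Ucp1, the largest increase, which held none. Each run is the 250 bases before a RefSeq transcription start (assembly GRCm38.p6), 5′ to 3′ on the gene's strand, with a searched motif in capitals.
Ucp1 chr8:83290098-83290347 (+ strand): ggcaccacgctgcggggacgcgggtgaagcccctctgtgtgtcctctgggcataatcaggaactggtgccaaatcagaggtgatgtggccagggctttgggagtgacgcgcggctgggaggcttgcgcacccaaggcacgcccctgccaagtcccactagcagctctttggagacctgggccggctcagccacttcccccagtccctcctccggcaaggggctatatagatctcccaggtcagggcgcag
Dio2 chr12:90739039-90739288 (- strand): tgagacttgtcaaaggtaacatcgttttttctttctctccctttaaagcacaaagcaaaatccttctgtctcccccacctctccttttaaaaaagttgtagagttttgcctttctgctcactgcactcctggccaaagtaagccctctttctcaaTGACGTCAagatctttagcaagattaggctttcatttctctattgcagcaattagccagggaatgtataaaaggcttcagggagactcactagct
Slc25a20 chr9:108661886-108662135 (+ strand): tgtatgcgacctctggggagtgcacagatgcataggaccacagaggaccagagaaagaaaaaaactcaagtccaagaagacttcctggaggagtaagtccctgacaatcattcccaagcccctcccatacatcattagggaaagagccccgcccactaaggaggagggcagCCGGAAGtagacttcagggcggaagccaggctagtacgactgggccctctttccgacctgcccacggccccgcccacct
Letmd1 chr15:100468761-100469010 (+ strand): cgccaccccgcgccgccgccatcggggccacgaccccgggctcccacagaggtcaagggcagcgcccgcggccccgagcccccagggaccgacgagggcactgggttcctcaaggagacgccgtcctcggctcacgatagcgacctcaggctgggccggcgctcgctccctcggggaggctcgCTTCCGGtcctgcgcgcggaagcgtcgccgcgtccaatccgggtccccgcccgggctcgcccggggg
Dio2 carries TGACGTCA, the palindromic cyclic AMP response element, 87 bases before its start. Slc25a20, the carnitine carrier, and Letmd1 carry CCGGAAG or its reverse complement, the core of ETS family sites such as those of GA-binding protein, 72 and 60 bases before theirs. That the window of Ucp1 holds no such letters says nothing of its distant enhancers.

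The same motifs were also searched in all windows of 16990 tested genes, a gene counting once if any of its windows held the motif on either strand. For the largest increases above only 1 window per gene was searched, so that count cannot be set against these shares. TGACGTCA stood in 2.3% of all genes, in 3.11% of those that rose and in 1.86% of those that fell. CCGGAAG stood in 10.0%, 17.8% and 7.24%. The palindromic decamer of nuclear respiratory factor 1 (NRF1), which acts on many mitochondrial genes and is in capitals in the last set of sequences, stood in 1.23%, 2.71% and 1.39%. The E-box CACGTG stood in 7.83%, 10.8% and 7.89%. TCAAGGTCA, read by estrogen-related receptors, stood in 0.341%, 0.478% and 0.464%. The consensus direct repeat with 1 spacer, which PPARs bind with retinoid X receptors, stood in 0.0589% of all genes, and in 1 gene that rose and 0 that fell. These shares describe letters in short windows, were not tested, and CCGGAAG was also common among genes that did not rise, at 34.1% of the cytosolic ribosomal protein genes. The NRF1 decamer stood in 4 of 60 respiratory chain genes with a window (6.67%) and 3 of 62 mitochondrial ribosomal genes (4.84%), both described below. Among mitochondrial import genes 0 of 25 held it, and among tricarboxylic acid cycle and pyruvate dehydrogenase genes 0 of 23. It also stood in 2 of 20 genes of mitochondrial fatty acid oxidation, which are not shown. The 7 windows of the respiratory chain and the mitochondrial ribosome are shown, with the 25 flanking bases on each side where the window has them.
Cox6a1 chr5:115349086-115349145 (- strand): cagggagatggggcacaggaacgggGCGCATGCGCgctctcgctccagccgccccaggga
Atp5g2 chr15:102671055-102671114 (- strand): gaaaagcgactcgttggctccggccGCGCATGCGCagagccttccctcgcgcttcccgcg
Atp5k chr5:108434415-108434474 (- strand): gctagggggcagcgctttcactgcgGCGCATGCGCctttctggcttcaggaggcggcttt
Ndufa11 chr17:56717677-56717736 (+ strand): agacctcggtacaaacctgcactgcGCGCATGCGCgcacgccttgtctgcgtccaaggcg
Mrpl9 chr3:94443283-94443335 (+ strand): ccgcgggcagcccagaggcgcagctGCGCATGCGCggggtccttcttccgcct
Mrpl39 chr16:84735335-84735394 (- strand): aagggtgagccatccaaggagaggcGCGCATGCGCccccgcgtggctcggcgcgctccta
Mrpl32 chr13:14613090-14613149 (- strand): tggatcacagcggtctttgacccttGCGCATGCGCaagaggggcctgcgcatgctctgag
Of these genes Cox6a1 (0.36), a subunit of cytochrome oxidase, Atp5g2 (0.28) and Atp5k (0.62), of ATP synthase, Ndufa11 (0.92), of complex I, and the ribosomal proteins Mrpl9 (0.46) and Mrpl39 (0.42) rose in the cold, and the ribosomal protein Mrpl32 did not pass (0.32, adjusted p = 0.278). Outside the leave-one-out fits, Atp5g2 did not pass from the null arrays alone or after quantile normalization (adjusted p up to 0.0857).

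Among transcription regulators increases outnumbered decreases. Of 34 transcription regulators of brown and beige fat 8 rose (23.5%) and 3 fell (8.82%), against 6.88% and 6.33% of all genes, with a median of 0.06. Ppargc1a, the coactivator of mitochondrial biogenesis, read 7.93, 7.79, 7.70, 7.84 and 7.83 in the cold and 6.28 to 6.83 (median 6.66) in the warmth, and rose by 1.20 (SE 0.11, adjusted p = 1.4e-07). The groups did not overlap. Its relative Ppargc1b rose by 1.47 (SE 0.13, adjusted p = 5.31e-08), and the nuclear receptors Esrra (0.53), Esrrg (0.83) and Rxrg (0.69) and the factor Cebpb (0.77) rose with them. Id1, an inhibitor of basic helix-loop-helix factors, rose by 0.52 (adjusted p = 0.047). Thra (−0.33), a thyroid hormone receptor, Irf4 (−0.42), a partner of Ppargc1a in fat, and Ebf1 (−0.22) fell. Prdm16 (0.08, adjusted p = 0.698), Ebf2 (−0.16, adjusted p = 0.386) and Pparg (0.10, adjusted p = 0.613), which set adipocyte identity, did not pass. The single Ppara probe set read 6.66, 5.99, 5.77, 5.99 and 7.10 on the cold null arrays and 4.14 to 5.45 (median 4.91) on the warm ones, without overlap, and rose by 1.42 (SE 0.23, adjusted p = 0.000129). The sources used here do not say whether its probes fall inside the disrupted stretch, so its level does not check the genotype labels. When single arrays were left out, Id1 passed in 2 of 11 refits, without cold replicate 4 or warm replicate 5 (adjusted p up to 0.149 in the others) and Irf4 did not pass without cold replicate 1 or 2 or warm replicate 1 or 3 (adjusted p 0.0638 to 0.0742). Likewise, Ebf1 did not pass without cold replicate 1 or 4 or warm replicate 2 or 5 (adjusted p 0.0533 to 0.0904). In the other alternatives, Id1 did not pass from the null arrays alone or after quantile normalization (adjusted p up to 0.107), Irf4 did not pass with marker means of muscle, B and T cells as covariates or from the null arrays alone (adjusted p up to 0.068) and Ebf1 did not pass with array medians subtracted or from the null arrays alone (adjusted p up to 0.0985).

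In adrenergic and cyclic AMP signalling, not all of it downstream of noradrenaline, 8 of 26 genes tested rose and 0 fell, with a median of 0.10. A further 8 genes of that list, the beta-adrenergic receptors among them, were not analysed here. Adcy10, the soluble adenylyl cyclase, read 4.82, 3.74, 4.58, 4.64 and 4.58 against 3.00 to 3.69 (median 3.18) and rose by 1.20 (SE 0.20, adjusted p = 0.000231). Rgs7, a regulator of G protein signalling, rose by 1.23 (SE 0.11, adjusted p = 4.54e-08), and Rgs2 by 0.47 (adjusted p = 0.048). Of the kinase that answers to cyclic AMP, the catalytic subunit Prkaca (0.55), the regulatory subunit Prkar2b (0.55) and the mitochondrial anchor Akap1 (0.75) rose. The phosphodiesterases Pde4a (0.66) and Pde3b (0.32), which break cyclic AMP down, rose too. The G protein gene Gnas did not pass (0.11, adjusted p = 0.303). In refits without 1 array, Rgs2 passed in 4 of 11 refits, without cold replicate 3 or 5 or warm replicate 2 or 5 (adjusted p up to 0.166 in the others). Among the remaining alternatives, Rgs2 did not pass in 5 fits (adjusted p up to 0.111) nor in a further one, with replicate number as a block (adjusted p = 0.0721). Pde3b did not pass from the null arrays alone or after quantile normalization (adjusted p up to 0.0571). Averaging probe sets gave Rgs2 a change of 0.31.

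Mitochondrial genes rose as a body in null mice. The increases covered the respiratory chain, the ribosome that makes its mitochondrial subunits, the import machinery, coenzyme Q and the proteins that shape the inner membrane. Of 71 subunits of respiratory complexes and ATP synthase measured, 63 rose and 0 fell, with a median of 0.74 (64 and 0 in wild-type mice, median 0.71). The isoforms typical of brown fat and muscle led. Cox7a1 read 10.62, 10.25, 9.83, 10.00 and 10.24 in the cold and 5.57 to 7.0 (median 6.24) in the warmth, with replicate 1 the highest, and rose by 3.88 (SE 0.22, adjusted p = 1.13e-10). Cox8b read 10.93, 10.64, 10.31, 10.69 and 10.76 against 7.30 to 8.24 (median 7.56) and rose by 2.96 (SE 0.18, adjusted p = 3.79e-10). Both are also expressed in muscle. The third such isoform, Cox6a2, did not pass (0.31, adjusted p = 0.819), and its change was −0.19 without cold replicate 1, the array with the highest muscle markers described below. Other subunits rose too, such as Uqcrfs1 (1.29) and Cyc1 (1.29) of complex III, Cycs (1.24), the carrier cytochrome c, and Sdhd (1.26) of complex II. Members that did not pass included Cox7c (0.37), Ndufs5 (0.23) and Atp5g1 (0.15). Cox7c passed in 6 of 21 alternatives (smallest adjusted p = 0.0159).

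Of 72 mitochondrial ribosomal proteins 47 rose and 0 fell, each by less than 1 log2 unit and with a median of 0.38. Mrpl34 (0.95) and Mrpl20 (0.68) were among those that rose, and Mrps12 (0.32) and Mrpl32 (0.32) among those that did not pass. Mitochondrial protein import had 22 increases and 1 decrease among 30 genes, with a median of 0.51. Grpel1 (1.00) and Hspa9 (0.77), of the motor that pulls proteins in, and the translocase subunit Timm44 (0.86) rose, and Tomm34, a cytosolic partner, fell (−0.33). Upkeep of mitochondrial DNA changed less, with 4 of 18 genes higher and 0 lower. Lrpprc (0.83), which stabilises mitochondrial messages, the transcription factor Tfb2m (0.78), the polymerase Polrmt (0.53) and Gabpa (0.37), the ETS subunit of GA-binding protein, rose. Tfam, which packs the genome, did not pass (0.26, adjusted p = 0.12), nor did Nrf1 itself (−0.01, adjusted p = 0.958). Mrps12 passed in 5 of 21 alternatives (smallest adjusted p = 0.0176).

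Coenzyme Q synthesis had 11 of 12 genes higher and 0 lower, with a median of 0.72. Coq8a, an atypical kinase of the pathway, read 7.98, 7.42, 7.29, 7.60 and 7.53 in the cold against 5.39 to 6.42 (median 5.96), without overlap, and rose by 1.65 (SE 0.18, adjusted p = 7.66e-07). Coq2, the prenyltransferase, did not pass (0.18, adjusted p = 0.228). Genes of mitochondrial shape had 17 of 22 higher and 0 lower. They included the cristae proteins Apoo (1.22) and Immt (0.86), the fusion protein Opa1 (0.66) and the fission factors Mtfp1 (1.03) and Mief2 (1.01). The main fission enzyme Dnm1l (0.08, adjusted p = 0.614) and its receptor Fis1 (−0.06, adjusted p = 0.716) did not pass. Chchd10, a small protein of the intermembrane space, was among the 20 largest increases (2.02, SE 0.20, adjusted p = 3.87e-07).

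Carriers and enzymes that bring fuel into mitochondria rose as well. Of 37 mitochondrial carriers 21 rose and 3 fell. Slc25a20, which brings in acylcarnitines, read 9.97, 9.72, 9.64, 9.91 and 9.96 at 5 °C and 7.34 to 7.95 (median 7.61) at 28 °C and rose by 2.20 (SE 0.11, adjusted p = 2.92e-11). The pyruvate carrier Mpc1 rose by 1.34 (adjusted p = 4.85e-07) and the coenzyme A carrier Slc25a42 by 0.86 (adjusted p = 1.98e-05). The carriers that fell were Slc25a24 (−0.40), for ATP-Mg and phosphate, Slc25a30 (−0.43) and Slc25a45 (−0.30). Among 24 genes of mitochondrial fatty acid oxidation 21 rose, with a median of 0.80, such as Acaa2 (1.52), the last enzyme of the spiral, the very long chain dehydrogenase Acadvl (1.44) and Cpt2 (1.17). Cpt1c, the brain form of the entry enzyme, fell (−0.33, adjusted p = 0.0428), and Cpt1a, the liver form, read 7.84, 7.93, 7.92, 7.70 and 7.96 against 7.62 to 8.38 (median 7.75), overlapped and did not pass (−0.03, adjusted p = 0.931). Cpt1b, a further form of the entry enzyme, was on the list but not among the genes tested, so its change is not known here. Of 36 peroxisomal genes 21 rose and 0 fell, led by the fatty acid transporter Abcd3 (0.94), the thiolase Acaa1b (1.01) and the import receptor Pex5 (0.78). With 1 array left out, Slc25a45 passed in 3 of 11 refits, without cold replicate 3 or warm replicate 2 or 5 (adjusted p up to 0.146 in the others) and Cpt1c passed in 3 of 11 refits, without cold replicate 3 or warm replicate 1 or 5 (adjusted p up to 0.127 in the others). Outside the leave-one-out fits and the replicate block, Slc25a45 did not pass in 5 fits (adjusted p up to 0.111) and Cpt1c did not pass in 4 fits (adjusted p up to 0.0851). With the replicate block neither passed (adjusted p = 0.0905 and 0.0666).

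Many of these genes are known targets of the missing receptor. Of 31 known PPARα targets 17 rose and 0 fell in null mice, with a median of 0.46, and 16 rose and 2 fell in wild-type mice, with a median of 0.41. Pdk4, the kinase that shuts pyruvate dehydrogenase, read 10.61, 9.75, 9.71, 10.37 and 10.36 on the cold null arrays and 7.03 to 8.17 (median 7.57) on the warm ones, without overlap, and rose by 2.58 (SE 0.21, adjusted p = 3.77e-08). Ucp3, a relative of Ucp1, rose by 1.17 (adjusted p = 2.67e-06), the retinol saturase Retsat by 1.04 (adjusted p = 8.95e-07) and the epoxide hydrolase Ephx2 by 1.07 (adjusted p = 2.53e-06). Fgf21, a hormone that the liver makes under PPARα, read 4.34, 4.08, 4.81, 4.28 and 5.02 against 3.25 to 4.13 (median 3.83), 1 cold array being inside the warm range, and rose by 0.72 (SE 0.21, adjusted p = 0.0225). Targets that did not pass in null mice included Ehhadh (0.59, adjusted p = 0.0536), Cyp4a14 (−0.26, adjusted p = 0.508), Angptl4 (0.21, adjusted p = 0.527) and Vnn1 (−0.33, adjusted p = 0.546). When single arrays were left out, Fgf21 did not pass without cold replicate 3 or 5 or warm replicate 2 (adjusted p 0.0609 to 0.0789). Ehhadh passed in 5 of 21 alternatives (smallest adjusted p = 0.0252).

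The tricarboxylic acid cycle and pyruvate dehydrogenase had 21 of 25 genes higher and 0 lower, with a median of 0.95. Subunits of pyruvate dehydrogenase, Dlat (1.52), Pdhb (1.38) and Pdhx (1.27), rose alongside 3 of its inhibiting kinases, Pdk4, Pdk2 (1.07) and Pdk1 (0.69), and 1 activating phosphatase, Pdp2 (0.58). The cytosolic side of glucose use had 14 of 22 genes higher and 0 lower, with a median of 0.50. Pfkl (1.54), the liver phosphofructokinase, Pgk1 (1.32), the hexokinase Hk2 (0.83) and the insulin-responsive transporter Slc2a4 (0.61) rose, and Hk1 (−0.09, adjusted p = 0.579) and Slc2a1 (−0.14, adjusted p = 0.449) did not pass. Slc2a5, the fructose transporter, read 8.26, 7.09, 7.43, 8.05 and 7.64 in the cold and 4.31 to 7.12 (median 5.44) in the warmth. It was the only gene of these 20 largest increases whose groups overlapped, and it rose by 2.09 (SE 0.39, adjusted p = 0.000641). Breakdown of branched-chain amino acids had 16 of 22 genes higher and 0 lower, led by Bckdha (0.89), of the complex that commits them to oxidation. Aspg, an asparaginase, was among the 20 largest increases (2.18, SE 0.19, adjusted p = 4.64e-08).

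Glycogen genes held 2 of the 20 largest increases. Gys2, the liver form of glycogen synthase, read 8.97, 8.68, 8.89, 9.01 and 8.84 on the cold arrays and 5.71 to 7.33 (median 6.15) on the warm ones. The cold arrays were tightly grouped and all higher, for a change of 2.57 (SE 0.22, adjusted p = 3.77e-08). Ppp1r3b, which brings a phosphatase to glycogen and activates the synthase, read 8.18, 7.65, 7.85, 8.08 and 8.03 against 4.76 to 6.26 (median 5.88), again without overlap, and rose by 2.19 (SE 0.22, adjusted p = 4.24e-07). In all 8 of 18 glycogen genes rose, among them the branching enzyme Gbe1 (1.04) and the liver phosphorylase Pygl (0.94), and Gaa, which degrades glycogen in lysosomes, fell (−0.29). The muscle phosphorylase Pygm (0.61, adjusted p = 0.72) did not pass, and its change was 0.012 without cold replicate 1. Muscle markers were uneven between the arrays: 0 of 16 passed, and their mean ran from 5.62 to 8.30 at 28 °C and from 6.13 to 9.29 at 5 °C, cold replicate 1 being the highest. With the means of the muscle and of the B and T cell markers added to the fit, an alternative chosen after seeing the data, 9 glycogen genes rose and 2 fell.

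Genes of fat synthesis rose alongside those of fatty acid oxidation, and the rate of neither process was measured. Of 17 lipogenic genes 12 rose and 0 fell, with a median of 0.72. Elovl6 (1.60, SE 0.27, adjusted p = 0.000191), which elongates palmitate, and Acacb (1.35, SE 0.26, adjusted p = 0.000823), the mitochondrial acetyl-CoA carboxylase, rose most, and Acly (1.23), Acss2 (1.01) and Fasn (0.47) rose too. The desaturase Scd1 (0.06, adjusted p = 0.644) and the regulator Srebf1 (0.06, adjusted p = 0.827) did not pass, whereas Mlxipl (0.51, adjusted p = 0.0257), the carbohydrate-response factor, rose. Triglyceride synthesis had 7 of 17 genes higher, such as Agpat2 (0.98) and Dgat1 (0.90), and 1 lower, Agpat4 (−0.46). Of 16 genes of lipolysis and lipid droplets 8 rose and 0 fell. The lipases Pnpla2 (0.24, adjusted p = 0.0524) and Lipe (0.07, adjusted p = 0.623) did not pass, nor did Plin1 (0.02, adjusted p = 0.92), the droplet coat of white fat, while Plin2 rose (0.84). For uptake from blood, 8 of 19 genes rose, among them Fabp5 (1.23) and Angptl8 (1.23), a feeding-induced partner in the inhibition of lipoprotein lipase, and 2 fell, Lrp1 (−0.45) and Apoe (−0.28). Lpl itself (0.05, adjusted p = 0.724) and Cd36 (0.04, adjusted p = 0.706) did not pass. Cholesterol synthesis had 6 of 17 genes higher and 0 lower, led by Hmgcs1 (1.01) and Pmvk (0.96). In refits without 1 array, Mlxipl did not pass without cold replicate 1 or 4 or warm replicate 2 or 4 (adjusted p 0.0558 to 0.0783) and Agpat4 did not pass without cold replicate 1 (adjusted p = 0.0501). Likewise, Apoe did not pass without cold replicate 1 or 4 or warm replicate 2 or 3 (adjusted p 0.0508 to 0.083). In the other alternatives, Fasn did not pass from the null arrays alone (adjusted p = 0.0774), Mlxipl did not pass with marker means of muscle, B and T cells as covariates or from the null arrays alone (adjusted p up to 0.0589) and Apoe did not pass with array medians subtracted or from the null arrays alone (adjusted p up to 0.0806). Pnpla2 passed in 9 of 21 alternatives (smallest adjusted p = 0.0173).

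**Figure D2:**
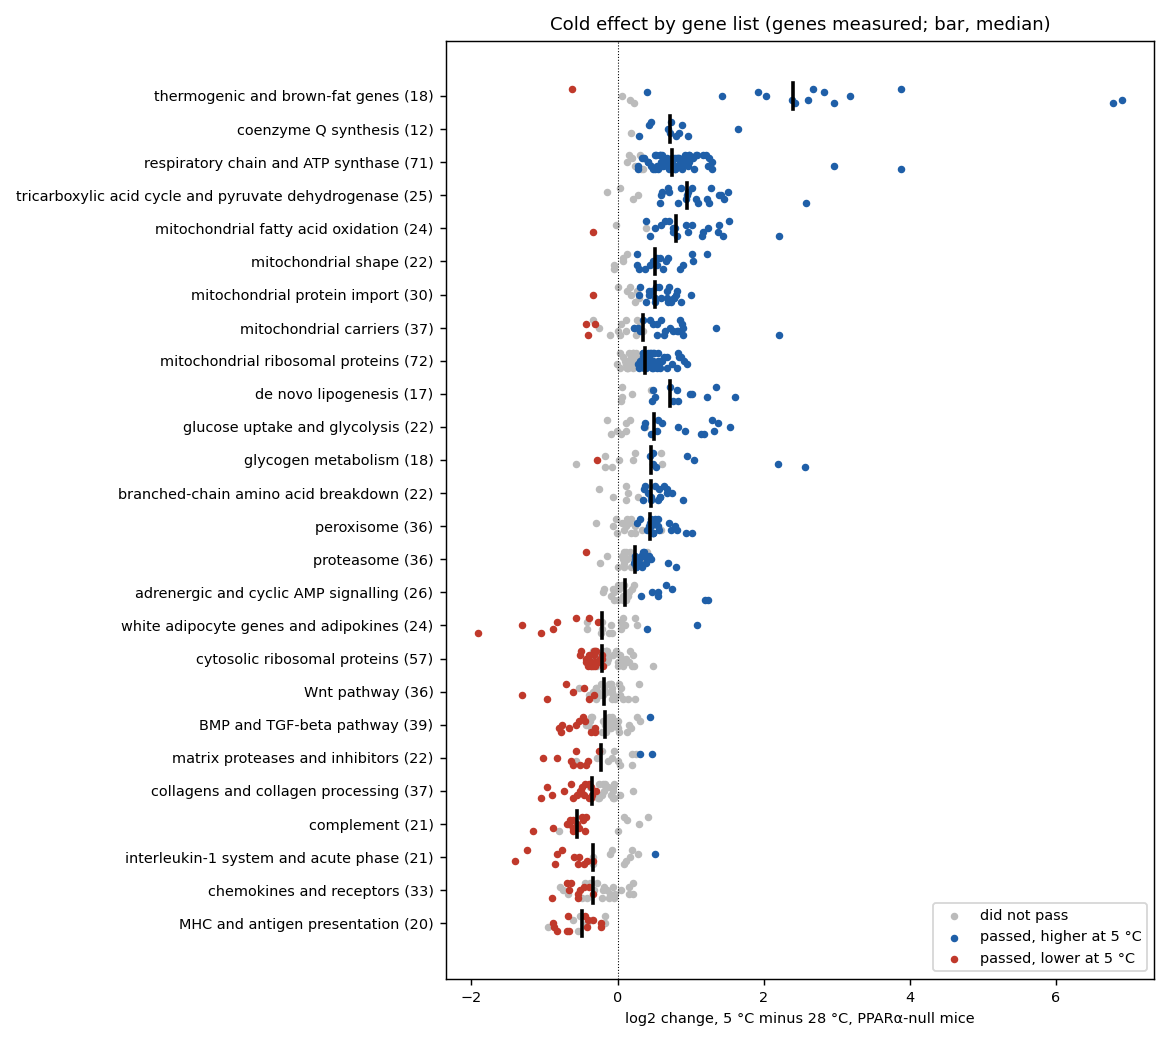
Log2 change in null mice (5 °C minus 28 °C) of every measured gene of 26 lists, the number measured in parentheses, with blue for genes that passed as higher, red for genes that passed as lower and grey for the rest, and a bar at each list's median. Medians run from 2.40 for thermogenic genes to −0.55 for complement, and the median over all genes was −0.0034.

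Other routes of heat and their support changed unevenly. In creatine and calcium cycling 2 of 18 genes rose (11.1%) and 1 fell (5.56%). These shares were near the 6.88% and 6.33% of all genes. Those that rose were Letm1 (1.33, adjusted p = 9.77e-10), an ion exchanger of the inner membrane, and Atp2a2 (0.42, adjusted p = 9.42e-05), a calcium pump. Gatm (−0.52, adjusted p = 0.00434), the first enzyme of creatine synthesis, fell. The creatine kinases Ckb (−0.06, adjusted p = 0.772) and Ckmt2 (−0.10, adjusted p = 0.953) did not pass. Sln (0.86, adjusted p = 0.339) and Atp2a1 (0.81, adjusted p = 0.584), which muscle expresses strongly, did not pass either, and without cold replicate 1 their changes were 0.058 and 0.23. Thyroid hormone and heme genes had 7 of 22 higher, among them the transferrin receptor Tfrc (0.71) and ferrochelatase Fech (0.38), and 1 lower, Thra. Antioxidant genes had 13 of 32 higher and 3 lower, with the mitochondrial Sod2 (0.99) and Prdx3 (0.88) higher and the secreted Gpx3 (−0.65), the proton-driven transhydrogenase Nnt (−0.33) and Gstm2 (−0.32) lower. The proteasome had 18 of 36 genes higher, led by Psmb5 (0.79), and 1 lower, Psmb9 (−0.44, adjusted p = 0.018), a subunit of the immunoproteasome. In the secretory pathway the opposite held: 5 of 22 chaperones and unfolded protein genes fell, Sdf2l1 (−0.70), Hsp90b1 (−0.28), Calr (−0.25), Pdia3 (−0.30) and P4hb (−0.30), and 1 rose, Dnajb9 (0.43). Of the serine and stress-response genes 7 of 19 rose, among them Asns (0.67), and Nupr1 fell (−0.36), the increases numbering 4 without cold replicate 3 or warm replicate 2. With 1 array left out, Gstm2 did not pass without cold replicate 3 or 5 or warm replicate 4, 5 or 6 (adjusted p 0.0524 to 0.0865) and Psmb9 did not pass without cold replicate 5 (adjusted p = 0.0523). Likewise, P4hb did not pass without cold replicate 4 (adjusted p = 0.0561) and Dnajb9 did not pass without cold replicate 2, 4 or 5 or warm replicate 1 (adjusted p 0.0519 to 0.0978). Among the remaining alternatives, Gstm2 did not pass with array medians subtracted (adjusted p = 0.0732), P4hb did not pass with array medians subtracted (adjusted p = 0.0527) and Nupr1 did not pass from the null arrays alone (adjusted p = 0.0662). P4hb and Dnajb9 also did not pass with the replicate block (adjusted p = 0.0515 and 0.0518).

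Cytosolic ribosomal proteins fell where mitochondrial ones rose. Of 57 measured 22 fell and 0 rose, with a median of −0.21. Rpl13 read 9.70, 9.74, 9.96, 9.72 and 9.68 in the cold and 10.07 to 10.46 (median 10.16) in the warmth and fell by 0.43 (SE 0.08, adjusted p = 0.000831), and Rps4x fell by 0.43 (adjusted p = 0.000646). Among members that did not pass were Rps13 (−0.37), below 0, and Rps23 (0.48), above it. These genes have many processed copies in the genome, among which probes may not distinguish, and with array medians subtracted 17 fell. With the probe sets of a gene averaged 14 fell and the median was −0.16.

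Secreted factors moved both ways. Kng2, a kininogen, the precursor of the vasoactive kinins, read 6.70, 5.40, 6.36, 6.02 and 6.45 at 5 °C and 2.11 to 3.48 (median 2.73) at 28 °C. All cold arrays lay above the warm ones, for a change of 3.39 (SE 0.29, adjusted p = 3.77e-08), and probe sets of close paralogues may share its signal. Of 23 secreted factors of thermogenic fat 5 rose, Kng2, Angptl8, Fgf21, the prostaglandin synthase Ptgds (0.52) and the angiogenic growth factor Vegfa (0.28), and 3 fell, C4b (−0.89), Cxcl14 (−0.45) and Igf1 (−0.34). The increases numbered 3 without cold replicate 2, 3 or 5, and also 3 from the null arrays alone or without the dimmest 50% of genes. Nrg4 (0.29, adjusted p = 0.0861) and Bmp8b (0.19, adjusted p = 0.586), 2 known signals of thermogenic fat, did not pass. Apln, a peptide hormone of vessels, rose by 1.08 (adjusted p = 0.013). When single arrays were left out, Ptgds did not pass without cold replicate 1, 2 or 5 (adjusted p 0.0541 to 0.0703) and Vegfa did not pass without cold replicate 2 or 3 or warm replicate 1, 4 or 6 (adjusted p 0.0536 to 0.0649). Likewise, Igf1 did not pass without cold replicate 1 or 5 or warm replicate 2, 3 or 6 (adjusted p 0.058 to 0.0862). Outside the leave-one-out fits, Ptgds did not pass from the null arrays alone (adjusted p = 0.0586), Vegfa did not pass from the null arrays alone or after quantile normalization (adjusted p up to 0.101) and Igf1 did not pass with array medians subtracted or from the null arrays alone (adjusted p up to 0.0784). Vegfa and Igf1 also did not pass with the replicate block (adjusted p = 0.0522 and 0.0642). Nrg4 passed in 3 of 21 alternatives (smallest adjusted p = 0.0388).

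White adipocyte genes and adipokines fell more often than they rose, 8 against 2 of 24, with a median of −0.21. Sult1e1, the estrogen sulfotransferase, fell most of all named genes. It read 6.75, 6.33, 5.59, 5.96 and 6.13 on the cold arrays and 7.74 to 8.71 (median 7.95) on the warm ones, and fell by 1.91 (SE 0.20, adjusted p = 6.97e-07) with no overlap. Leptin, the hormone that reports fat stores, read 9.97, 10.59, 10.77, 9.69 and 9.86 against 10.60 to 11.63 (median 10.95), and Lep fell by 0.83 (SE 0.25, adjusted p = 0.0285) with overlapping groups. Adiponectin changed little but evenly: Adipoq read 9.88, 9.99, 9.81, 9.91 and 9.93 against 10.07 to 10.26 (median 10.21) and fell by 0.27 (SE 0.06, adjusted p = 0.00449). Nnat, an imprinted gene, read 10.29, 10.99, 10.25, 9.15 and 10.23 in the cold, spread far wider than the 10.81 to 11.41 (median 11.32) of the warm arrays, and fell by 1.05 (SE 0.26, adjusted p = 0.00762) with 1 cold array inside the warm range. Retnla (−0.89), a product of alternatively activated macrophages as well as fat, and Agt (−0.57), angiotensinogen, fell, while Retn (0.07, adjusted p = 0.576) and Rbp4 (−0.12, adjusted p = 0.365) did not pass. In refits without 1 array, Lep did not pass without cold replicate 1, 4 or 5 or warm replicate 2 or 4 (adjusted p 0.0503 to 0.092). Nor did Lep pass with the replicate block (adjusted p = 0.053).

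**Figure D3:**
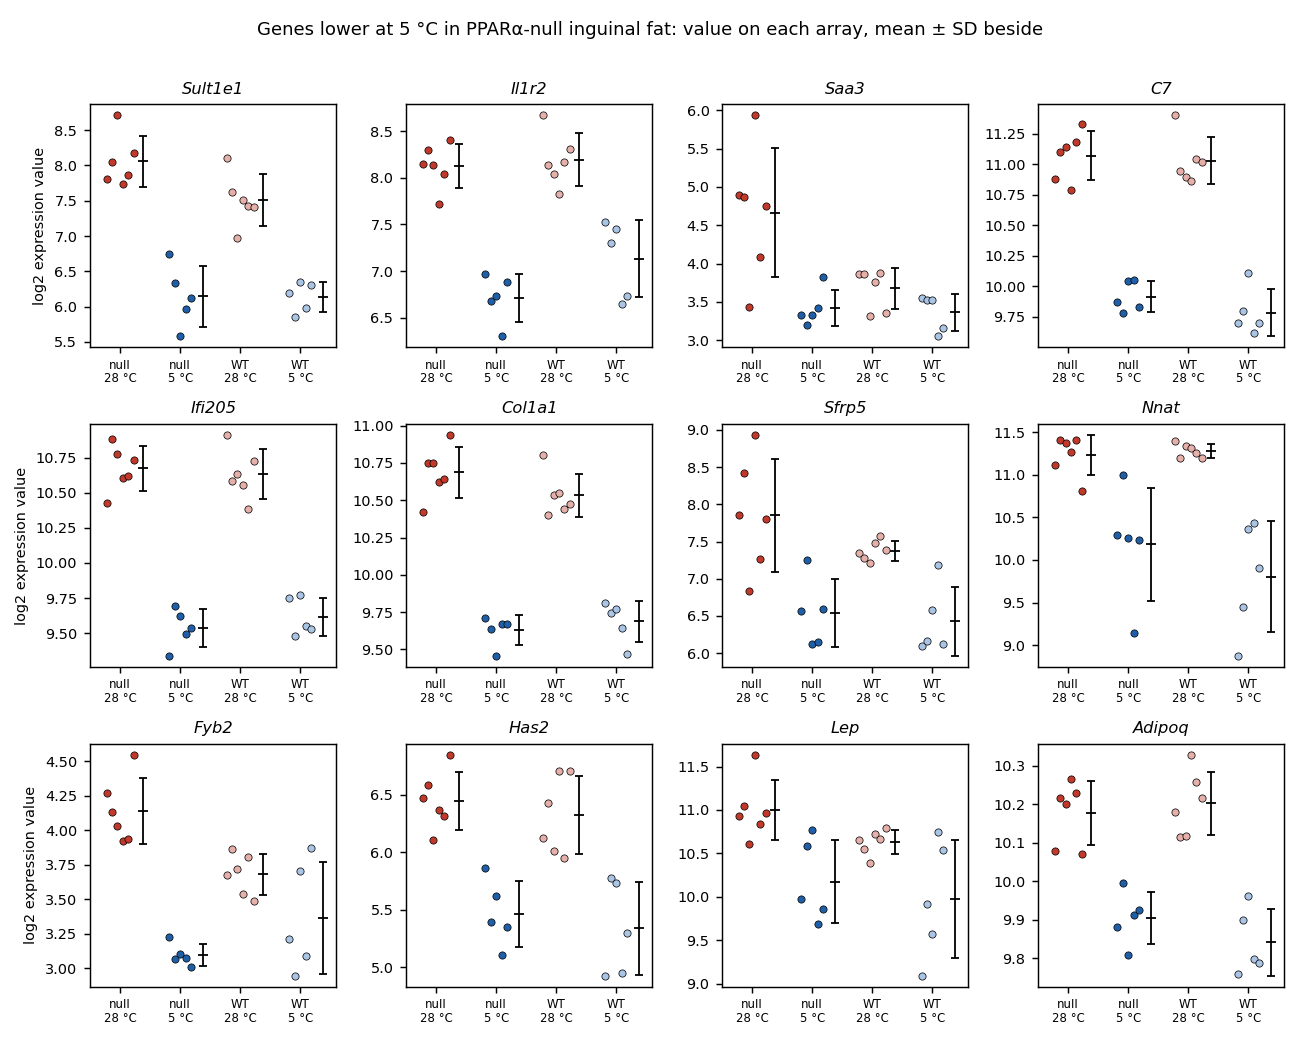
Values of 12 genes that fell in null mice, on every array (log2 expression, vertical axes scaled to each gene), colours and mean ± SD as for the increases (n = 6 at 28 °C and n = 5 at 5 °C). The shifts are smaller than those of the increases, and for Saa3, Sfrp5, Nnat and Lep cold and warm null arrays overlap.

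Genes of connective tissue fell. Of 37 genes of collagens and their processing 18 fell and 0 rose, with a median of −0.35. Col1a1, the main chain of fibrillar collagen, read 9.71, 9.64, 9.46, 9.67 and 9.67 in the cold and 10.42 to 10.93 (median 10.70) in the warmth and fell by 1.06 (SE 0.09, adjusted p = 4.54e-08). Its partners Col1a2 (−0.90) and Col3a1 (−0.74), the beaded-filament chain Col6a6 (−0.97) and the proteinase Bmp1 (−0.64), which trims procollagen, fell as well. The basement membrane chains Col4a1 (−0.21, adjusted p = 0.152) and Col4a2 (−0.07, adjusted p = 0.718) did not pass. Has2, which makes hyaluronan, was among the 20 largest decreases and fell by 0.98 (SE 0.18, adjusted p = 0.000724). Of 22 matrix proteases and inhibitors 9 fell, such as the aggrecanase Adamts5 (−1.02) and the gelatinase Mmp2 (−0.64), and 2 rose, Mmp19 (0.47) and Adamts9 (0.30). Of 12 preadipocyte and fibroblast markers 9 fell, including Pdgfra (−0.39) and Pi16 (−0.88). Their mean ran from 8.92 to 9.10 at 28 °C and from 8.49 to 8.54 at 5 °C, without overlap, and its part in the fall of the matrix genes was not tested. With 1 array left out, Adamts9 did not pass without cold replicate 4 or 5 (adjusted p 0.0584 to 0.0593). In the other alternatives, Adamts9 did not pass from the null arrays alone (adjusted p = 0.063). Col4a1 passed in 2 of 21 alternatives (smallest adjusted p = 0.0422).

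Genes of Wnt, BMP and growth factor signalling also fell more often than they rose. Of 36 Wnt pathway genes 7 fell and 0 rose. The secreted antagonists Sfrp2 (−0.97), Sfrp1 (−0.61), Sfrp4 (−0.46) and Dkk2 (−0.70) were among them. Sfrp5, another antagonist, read 6.57, 7.25, 6.13, 6.15 and 6.59 against 6.83 to 8.93 (median 7.83), overlapped, and fell by 1.31 (SE 0.29, adjusted p = 0.00283). The ligand Wnt10b (−0.39, adjusted p = 0.17) did not pass. In the BMP and TGF-beta pathway 11 of 39 genes fell, among them the ligands Gdf10 (−0.80) and Bmp7 (−0.77) and the antagonists Chrdl1 (−0.77) and Fst (−0.57), and 1 rose, the inhibitor Smad6 (0.44, adjusted p = 0.037). Growth factor binding followed, with Igfbp6 (−0.62) and Igfbp5 (−0.52) among 6 decreases and 0 increases in 26 genes of insulin and IGF signalling, where Insr (0.19, adjusted p = 0.0936) and Irs1 (0.11, adjusted p = 0.691) did not pass, and the decreases numbered 3 without cold replicate 1 or 5 or warm replicate 6, from the null arrays alone or with array medians subtracted. Of 27 angiogenic factors and receptors 5 fell (18.5%), Thbd (−0.86), Fgf2 (−0.72), Vegfc (−0.49), Tek (−0.34) and Thbs2 (−0.46), and 2 rose (7.41%), Apln and Vegfa. Over all genes 6.33% fell and 6.88% rose. Of 12 endothelium markers 1 fell (8.33%), Tek, and 0 rose. Of 37 axon guidance and nerve growth genes 2 rose (5.41%), S100b and the neurotrophic factor Nrtn (0.55, adjusted p = 0.0135), and 6 fell (16.2%), such as Slit3 (−0.51) and Sema3b (−0.63), or 3 from the null arrays alone. When single arrays were left out, Smad6 passed in 5 of 11 refits, without cold replicate 3 or 4 or warm replicate 2, 3 or 5 (adjusted p up to 0.119 in the others) and Thbs2 did not pass without cold replicate 1 (adjusted p = 0.0554). Among the remaining alternatives, Smad6 did not pass with marker means of muscle, B and T cells as covariates or from the null arrays alone (adjusted p up to 0.0579) and Thbs2 did not pass from the null arrays alone (adjusted p = 0.0729). Smad6 also did not pass with replicate number as a block (adjusted p = 0.0846). Averaging probe sets gave Sfrp2 a change of −0.58. Insr passed in 3 of 21 alternatives (smallest adjusted p = 0.0182).

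Innate immune genes fell in the cold. Macrophage markers fell in 13 of 15, with a median of −0.61, and their mean ran from 8.06 to 8.36 at 28 °C and from 7.54 to 7.79 at 5 °C, without overlap. Adgre1, a surface receptor that defines mouse macrophages, fell by 0.80 (SE 0.12, adjusted p = 4.17e-05). B and T cell markers were uneven instead: 0 of 12 passed, their median change was −0.83, and their mean ran from 4.60 to 8.19 at 28 °C and from 4.09 to 7.08 at 5 °C. The part of macrophages in the changes that follow was not tested. For some lists the count is also given from the fit with the marker means of muscle and of B and T cells as covariates, chosen after seeing the data. That fit does not take the RNA of those cells out of the values, and their part was not tested.

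Of 21 complement genes 14 fell and 0 rose, with a median of −0.55, and with the marker means 16 fell. C7, a component of the lytic complex, read 9.87, 9.78, 10.05, 10.05 and 9.83 at 5 °C and 10.79 to 11.33 (median 11.12) at 28 °C and fell by 1.15 (SE 0.11, adjusted p = 1.97e-07). The macrophage products C1qa (−0.65), C1qb (−0.61) and C1qc (−0.61), the inhibitor Serping1 (−0.66) and the alternative pathway genes Cfb (−0.48) and Cfp (−0.61) fell. C4b fell by 0.89 (SE 0.09, adjusted p = 7.3e-07), and its near copy C4a, whose probes may share signal with it, did not pass (−0.80, adjusted p = 0.0882). Of 21 genes of the interleukin-1 system and the acute phase 11 fell and 1 rose, Orm1 (0.51). Il1r2, the decoy receptor, read 6.97, 6.68, 6.74, 6.30 and 6.88 against 7.72 to 8.40 (median 8.14), without overlap, and fell by 1.41 (SE 0.17, adjusted p = 4.81e-06). The signalling receptor Il1r1 (−0.55) and its coreceptor Il1rap (−0.46), the alarmin Il33 (−0.85), Il18 (−0.77) and haptoglobin Hp (−0.83) fell. The ligands Il1b (0.08, adjusted p = 0.865) and Il1a (−0.10, adjusted p = 0.803) did not pass. Saa3, an acute phase apolipoprotein, read 3.32, 3.20, 3.33, 3.42 and 3.83 in the cold and 3.44 to 5.93 (median 4.81) in the warmth. The warm arrays were widely spread and reached into the cold ones, and the fall was 1.24 (SE 0.28, adjusted p = 0.00343). Outside the leave-one-out fits, Il1rap did not pass with its probe sets averaged (adjusted p = 0.204). Averaging probe sets gave Il1rap a change of −0.18. C4a passed in 3 of 19 alternatives (smallest adjusted p = 0.0317).

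Antigen presentation had 12 of 20 genes lower and 0 higher, with a median of −0.48. The class II chains H2-Ab1 (−0.83), H2-Eb1 (−0.88) and H2-Aa (−0.68) and the loading factor H2-DMa (−0.89) fell, and so did the class I gene H2-K1 (−0.33). The B cell forms H2-Ob (−0.52, adjusted p = 0.646) and H2-DMb2 (−0.96, adjusted p = 0.482) did not pass. With the marker means in the fit 11 fell and the median was −0.31. Of 33 chemokines and receptors 10 fell and 0 rose, and with the marker means 9 fell. They included the monocyte receptor Ccr2 (−0.89) and the eosinophil attractant Ccl24 (−0.67), whereas Ccl2 (−0.12, adjusted p = 0.719) did not pass. Interferon-stimulated genes had 7 of 28 lower, led by Ifi205, which read 9.34, 9.69, 9.62, 9.50 and 9.54 against 10.43 to 10.88 (median 10.67) and fell by 1.13 (SE 0.10, adjusted p = 3.77e-08), and 1 higher, Ifi27 (0.60). That count of decreases was 4 without cold replicate 4 and 11 without cold replicate 3, and 12 without the dimmest 50% of genes and 11 with trended robust variances. The lysosome was divided, with 8 of 33 genes higher, mostly proton pump subunits such as Atp6v1d (0.46), and 9 lower, mostly proteases such as Ctsh (−0.69) and Ctss (−0.67). The increases numbered 4 without cold replicate 4 and 5 without warm replicate 1 or 3, 4 from the null arrays alone and 5 after quantile normalization. Mast cell markers passed in 0 of 10 and epithelium markers in 0 of 9.

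**Figure D4:**
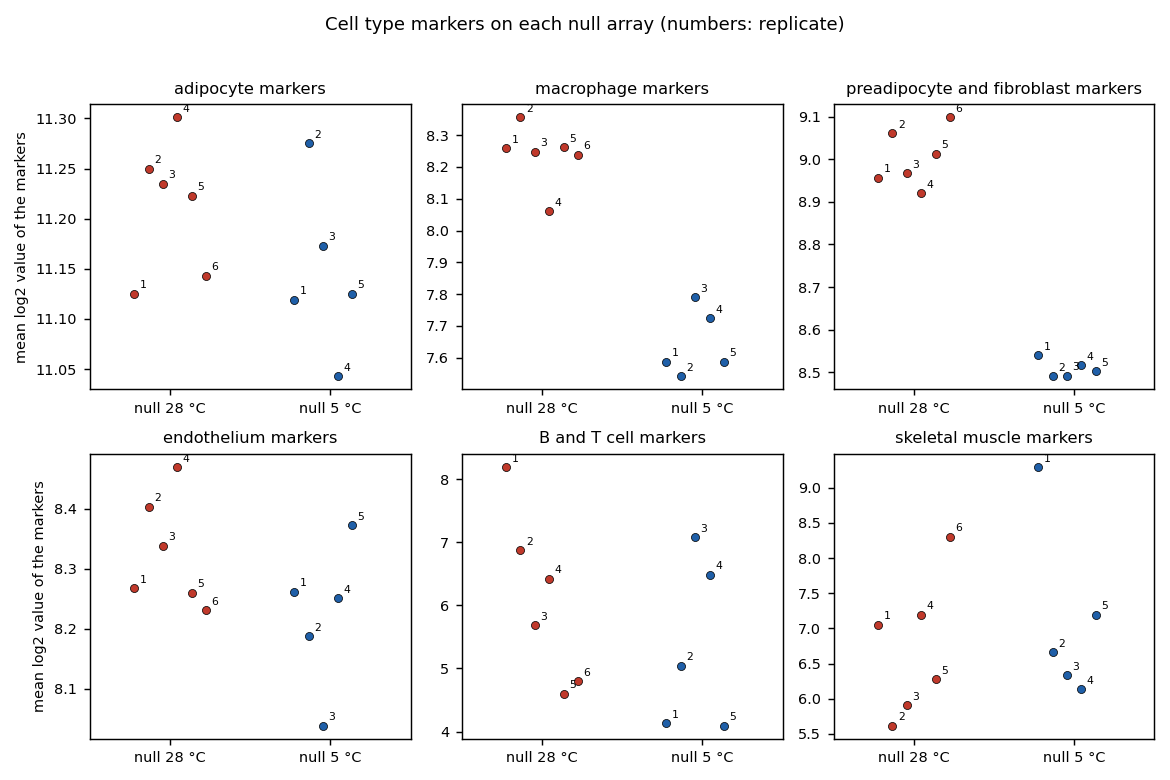
Mean log2 value of the markers of 6 cell types on each of the 11 null arrays, labelled by replicate number, with 28 °C in red and 5 °C in blue (vertical axes scaled to each panel). Macrophage and fibroblast markers separate the groups, whereas B and T cell and muscle markers spread over several log2 units within each group, with muscle highest in cold replicate 1.

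Cell division, clock and channel genes changed little, where 6.88% of all genes rose and 6.33% fell. Of 35 cell cycle genes 0 rose and 3 fell (8.57%), Cdk4 (−0.28, adjusted p = 0.0135), Pcna (−0.22, adjusted p = 0.0292) and the inhibitor Cdkn1b (−0.25, adjusted p = 0.0478). Mki67, the proliferation marker, did not pass (0.42, adjusted p = 0.24). The decreases in the cell cycle list numbered 1 without cold replicate 1, 2 or 5 or warm replicate 1, from the null arrays alone or with array medians subtracted. Of 19 clock genes 2 rose (10.5%), Cry1 (0.52, adjusted p = 0.0447) and Bhlhe40 (0.57, adjusted p = 0.0419), and 0 fell. Among 24 channels 2 rose (8.33%), Otop1 and the mechanosensitive Piezo1 (0.28), and 2 fell (8.33%), the water channel Aqp1 (−0.54) and Kcnt2 (−0.56, adjusted p = 0.048). Both shares were near those of all genes. The channels that rose numbered 4 with array medians subtracted, without the dimmest 25% or 50% of genes or with trended robust variances. In refits without 1 array, Pcna did not pass without cold replicate 1, 2 or 5 or warm replicate 1 (adjusted p 0.0614 to 0.0832) and Cdkn1b passed in 1 of 11 refits, without warm replicate 6 (adjusted p up to 0.116 in the others). Likewise, Cry1 passed in 3 of 11 refits, without cold replicate 3 or warm replicate 1 or 4 (adjusted p up to 0.137 in the others) and Bhlhe40 passed in 3 of 11 refits, without cold replicate 2 or warm replicate 3 or 5 (adjusted p up to 0.122 in the others). Likewise, Kcnt2 passed in 4 of 11 refits, without cold replicate 2 or 4 or warm replicate 1 or 4 (adjusted p up to 0.146 in the others). In the other alternatives, Pcna did not pass with array medians subtracted or from the null arrays alone (adjusted p up to 0.104), Cdkn1b did not pass with array medians subtracted, with marker means of muscle, B and T cells as covariates or from the null arrays alone (adjusted p up to 0.0939) and Bhlhe40 did not pass after quantile normalization (adjusted p = 0.0548). Likewise, Kcnt2 did not pass with array medians subtracted, from the null arrays alone or after quantile normalization (adjusted p up to 0.137). Cdkn1b, Cry1, Bhlhe40 and Kcnt2 also did not pass with the replicate block (adjusted p 0.0607 to 0.0829). Mki67 passed in 1 of 21 alternatives (smallest adjusted p = 0.0336).

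The remaining genes of the 20 largest decreases belong to no single group. They were Eepd1 (−1.13), the aminopeptidase Xpnpep2 (−1.09), Alkal2 (−1.07), a ligand of the receptor kinases ALK and LTK, the carnitine efflux transporter Slc16a9 (−1.04), the myeloid receptor Clec12a (−1.04), Glt8d2 (−1.02), Plac9a (−1.02), the carboxypeptidase Folh1 (−1.01), Ankrd29 (−1.01) and Fyb2 (−1.04). Cold and warm null arrays were apart for 16 of the 20, and overlapped for Sfrp5, Saa3, Nnat and Folh1. Over all genes 4.06% were apart in this direction. The 20 were chosen by their fall on the same arrays, so this count is only a description. With 1 array left out, Folh1 did not pass without cold replicate 1 or 4 (adjusted p 0.0562 to 0.0582).

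MicroRNA genes were measured through their precursors. Of 483 tested 6 rose and 8 fell, lower shares than the 6.88% and 6.33% of all genes. Both loci of miR-365 were among those that rose and were picked out after their values were seen. Mir365-1, on chromosome 16, read 5.10, 5.41, 5.83, 5.52 and 5.49 on the cold null arrays and 3.72 to 5.38 on the warm ones, and rose by 1.04 (SE 0.26, adjusted p = 0.00754). Mir365-2, on chromosome 11, read 5.86, 6.15, 6.46, 5.95 and 5.99 against 5.17 to 6.03 and rose by 0.50 (SE 0.14, adjusted p = 0.0239). Groups overlapped at both, and Mir365-2 did not pass without cold replicate 2 or 3 or warm replicate 2 or 5 (adjusted p 0.0516 to 0.0779) or from the null arrays alone (adjusted p = 0.0685). In wild-type mice Mir365-1 rose by 0.82 (adjusted p = 0.0293) and Mir365-2 did not pass (0.09, adjusted p = 0.746). The difference between genotypes passed at neither locus (adjusted p = 0.999 and 0.965). RefSeq gives the 2 loci the same mature 3′ arm, so its source cannot be assigned, and 5′ arms with a shared seed (bases 2 to 8, in capitals).
miR-365-3p: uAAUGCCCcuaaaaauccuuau
miR-365-1-5p: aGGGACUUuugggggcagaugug
miR-365-2-5p: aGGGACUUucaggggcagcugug

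Whether the cold response differs without the receptor was tested as the null minus the wild-type cold effect. Of 22180 genes 0 passed (0% of genes, limma, smallest adjusted p = 0.688), and 1137 (5.13%) had an unadjusted p under 0.05. The 95% interval of that difference had a median half-width of 0.38 log2 units over all genes, and was under 1 for 98.3% of them. The difference was −0.14 (95% interval −0.86 to 0.58) for Ucp1, −0.10 (95% interval −0.77 to 0.58) for Elovl3 and 0.17 (95% interval −0.16 to 0.51) for Slc25a20. For Pdk4 it was 0.40 (95% interval −0.23 to 1.03) and for Fgf21 0.31 (95% interval −0.30 to 0.92). These intervals do not show equal responses. They bound the size of a difference that these arrays could have missed. All 20 of the largest increases in null mice also passed as higher in wild-type mice, and all 20 intervals of their difference span 0, with bounds from −1.08 to 1.45.

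Of the 20 largest decreases 17 also fell in wild-type mice. The 3 that did not pass there were Saa3, with a wild-type change of −0.31 (adjusted p = 0.517), Fyb2, with −0.32 (adjusted p = 0.144), and Folh1, with −0.82 (adjusted p = 0.0501). The difference was −0.93 (95% interval −1.74 to −0.12) for Saa3 and −0.72 (95% interval −1.14 to −0.31) for Fyb2, the only 2 of the 20 whose interval leaves out 0, and neither passed (adjusted p = 0.963 and 0.881). Since the null response chose these genes, the sign of their differences is a description. Among the 10 genes with the smallest p-values of the difference were Mctp1 (difference 0.52, 95% interval 0.29 to 0.75) and H2-Q10 (difference 0.60, 95% interval 0.32 to 0.88). H2-Q10, a class I gene best known from liver, read 9.52, 9.50, 9.48, 9.35 and 9.54 on the cold null arrays and 8.19 to 8.70 (median 8.35) on the warm ones, without overlap, and rose by 1.09 (SE 0.09, adjusted p = 4.54e-08) in null and by 0.49 (adjusted p = 0.000641) in wild-type mice. Its probes may share signal with other class I genes. Nos2, inducible nitric oxide synthase, changed by −0.09 in null and 0.63 in wild-type mice (difference −0.72, 95% interval −1.06 to −0.38). The most positive difference among genes that passed in null mice was that of Alb, albumin, which read 8.39, 9.22, 8.04, 8.38 and 8.51 in the cold against 7.23 to 8.00 (median 7.54) and changed by 0.92 in null and by −0.07 in wild-type mice, a difference of 0.99 (95% interval 0.43 to 1.55) that did not pass (adjusted p = 0.872). Tarm1, a myeloid activating receptor, rose by 1.25 in null and by 0.59 in wild-type mice (difference 0.66, 95% interval 0.20 to 1.12). Averaging probe sets gave H2-Q10 a change of 0.65.

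**Figure D5:**
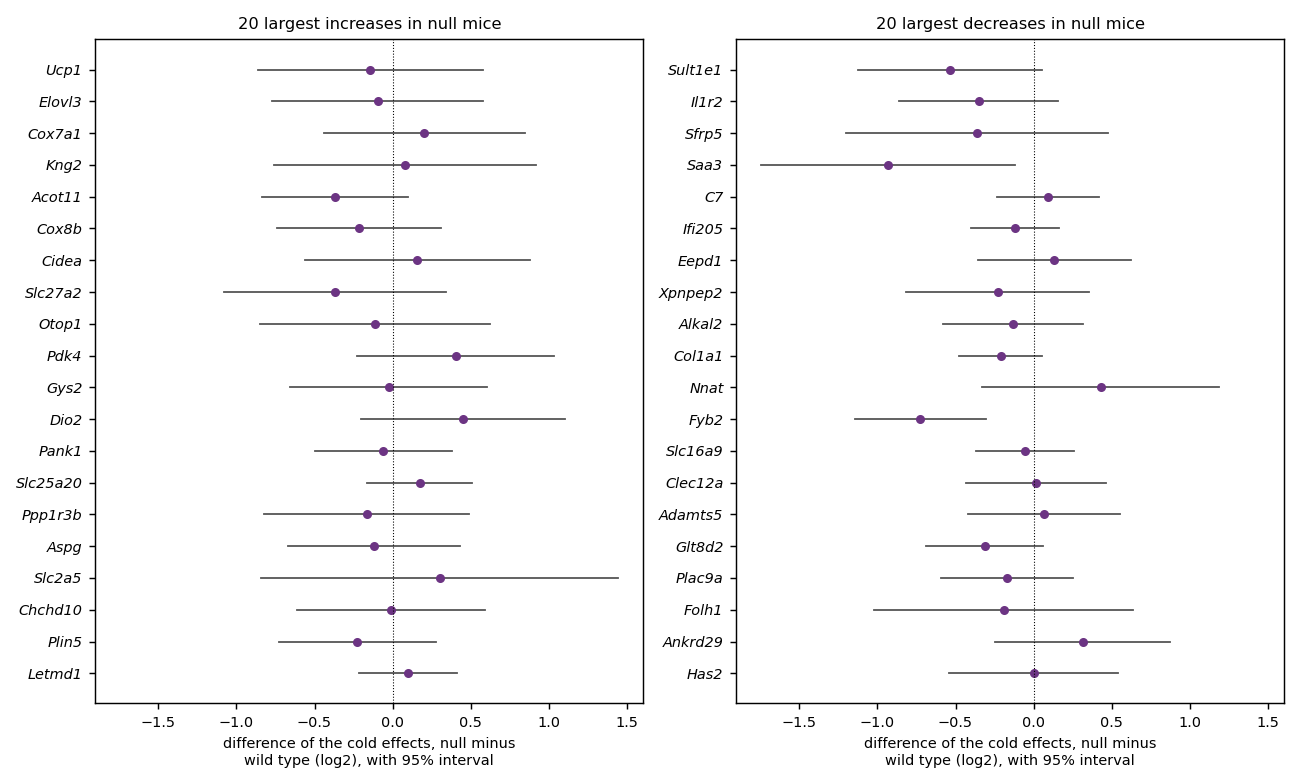
Difference between the cold effects of null and wild-type mice (null minus wild type, log2) for the 20 largest increases (left) and the 20 largest decreases (right) in null mice, each with its 95% interval (n = 5 cold and 6 warm mice per genotype). All intervals on the left span 0, on the right those of Saa3 and Fyb2 lie below 0, and 0 genes passed after adjustment over all genes.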

How the data were processed

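Inguinal fat RNA of 22 mice was hybridised to 1 array per mouse, and the 11 arrays of null mice carry the results. The authors deposited log2 expression values per probe set, made with robust multi-array average (RMA) per the submitters' processing notes. RMA subtracts background, equalises the arrays' distributions and summarises probes, so a difference in total RNA per cell is not seen. Neither the RMA version nor the genome build behind the annotation is given in the sources used here. Probe sets with 1 gene symbol were kept, and a gene with several was represented by the brightest over all 22 arrays, which left 22180 genes. All 22 arrays entered one limma fit of 4 groups (limma 3.58.1, R 4.3.3), with the cold effect in null mice, the cold effect in wild-type mice and their difference as contrasts, empirical Bayes variances (18 residual and 3.35 prior degrees of freedom) and two-sided p-values adjusted by Benjamini-Hochberg over all genes at 0.05. The fit was tested on simulated data. No filter on low values was used, so a probe set near background can be among the genes tested.

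The members and lists were chosen with earlier results of these data known, and 136 listed symbols are not among the genes tested. The rule names Ppara, Ucp1, Adipoq, the 20 largest increases and decreases in null mice, up to 10 members of each list by p and direction, and the genes with the smallest p or the largest change in the difference. Promoters, miRNAs and updated symbols came from RefSeq tables (GRCm38.p6). Alternatives were array medians subtracted, quantile normalization, the dimmest 25% or 50% of genes left out, probe sets of a gene averaged, trended robust variances, array weights, the null arrays alone, a replicate block, each array left out and, chosen after seeing the data, marker means of muscle and of B and T cells as covariates. All value columns were matched to a sample by title. How the 22 mice were picked from the 40 housed is not given.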

Additional observations from a re-analysis of the deposited data

Results flagged for a closer look

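In each null group of 304 named genes, the highest and the lowest array were set against the others, and 21 of 608 groups held an array whose distance from its nearest neighbour was a large part of the group's whole range (Dixon's test at the 95% level). Chance marks about 1 in 20 groups.

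Cold replicate 1 stood high for 2 genes that muscle expresses strongly. Ckmt2, the mitochondrial creatine kinase of muscle, read 5.62 against 2.41 to 3.09 on the other cold arrays, and Sln, a regulator of the calcium pump of muscle, 6.74 against 2.22 to 3.20. The same array had the highest mean of the muscle markers, and their part in these values was not tested. It was also high for Mrpl34 (8.70 against 8.23 to 8.29) and Pde4a (6.43 against 5.91 to 6.05).

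Cold replicate 2 was low for Adcy10 (3.74 against 4.58 to 4.82), Fasn (12.42 against 12.70 to 12.78) and Il1rap (4.93 against 5.26 to 5.38). Cold replicate 3 was low for Bckdha (8.89 against 9.18 to 9.27), Col1a1 (9.46 against 9.64 to 9.71), Pnpla2 (11.67 against 11.86 to 11.91) and Retsat (8.44 against 8.75 to 8.81) and high for Rpl13 (9.96 against 9.68 to 9.74). Cold replicate 4 was low for C1qa (8.04 against 8.20 to 8.27).

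Among the warm arrays, replicate 1 was high for Pcna (8.10 against 7.76 to 7.87) and Rpl13 (10.46 against 10.07 to 10.19) and low for Hsp90b1 (10.08 against 10.23 to 10.30). Replicate 2 was low for Hk2 (7.42 against 7.91 to 8.17) and replicate 3 for Nnt (5.62 against 5.88 to 5.95). Replicate 4 was low for Ckb (8.10 against 8.28 to 8.37) and Mctp1 (5.43 against 5.74 to 5.89), and replicate 6 was high for Col6a6 (6.31 against 5.86 to 6.02).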

How the results depend on the processing

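The count of genes that passed in null mice, 2930, was 2789 with array medians subtracted, 2896 after quantile normalization, 3254 and 3505 without the dimmest 25% and 50% of genes, 2835 with probe sets of a gene averaged, 3205 with trended robust variances, 2936 with array weights, 2254 from the null arrays alone and 2928 with the marker means. Leaving out 1 null array gave 2320 to 2802 genes, the lowest without cold replicate 1. Deviations from the group means of cold and warm null mice with the same replicate number correlated at −0.18 to 0.177. Of these correlations 1 of 5 was over 0.1, and 1 mouse was closest to its own number. Unlike numbers reached 0.351, so these values show no pairing by number but could miss a small shared effect. The fit with the replicate block gave 2683 genes, 1453 higher and 1230 lower. The count of genes whose cold effect differed between genotypes was 0 in all fits except that without wild-type cold replicate 3, where it was 1, an unnamed transcript, so that leaving out 1 array gave 0 to 1.

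Genes named as not passing near 0 changed sign in some fits: with array medians subtracted Cpt1a was 0.015 and Nrf1 0.032, after quantile normalization Cd36 was −0.005, Lpl −0.026, Scd1 −0.014, Plin1 −0.076 and Nrf1 0.026, with the marker means Cox6a2 was −0.044, H2-Ob 0.048 and Nrf1 0.016, and with the replicate block Ckmt2 was 0.19. With 1 array left out the change ran over −0.084 to 0.067 for Cpt1a, −0.056 to 0.025 for Nrf1, −0.021 to 0.086 for Plin1, −0.06 to 0.21 for Cited1, −0.19 to 0.58 for Cox6a2, −0.68 to 0.18 for Ckmt2, −0.19 to 0.039 for Il1a and −0.022 to 0.16 for Il1b. The cause of these sign changes was not tested. Of the 244 named genes that passed, 0 changed sign in an alternative. Outside the leave-one-out fits 29 of them lost their call in at least 1, most of them, 22, from the null arrays alone, and 10 named genes that had not passed did so in some alternative. Among the list counts of 3 or fewer, 28 moved by over 1.5 times in some fit, by at most 2 genes. Array number limits the precision, and values near background compress changes.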

Other observations

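Just below the 20 largest increases stood genes that fall in no list, named here after their values were seen. Gpd2, the mitochondrial glycerol phosphate dehydrogenase that carries electrons from glycolysis into the respiratory chain, rose by 1.79 (SE 0.14, adjusted p = 9.4e-09). Perm1, a regulator of mitochondrial genes known from muscle, rose by 1.72 (SE 0.18, adjusted p = 7.74e-07), Ppif, the cyclophilin of the permeability transition, by 1.53 (SE 0.10, adjusted p = 1.37e-09), and the carrier Slc25a48 by 1.52 (SE 0.19, adjusted p = 5.23e-06). The kinase Pim1 rose by 1.64 (SE 0.16, adjusted p = 3.5e-07). Cpn2, a subunit of the plasma enzyme that trims kinins, read 4.87, 4.29, 4.42, 4.59 and 4.76 in the cold against 2.74 to 3.87 (median 2.97) with a rise of 1.46 (SE 0.19, adjusted p = 1.23e-05). The wild-type changes of these genes were 1.80, 1.26, 1.56, 1.39, 1.89 and 1.48. Averaging probe sets gave Pim1 a change of 1.00.

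Below the 20 largest decreases stood Penk, the precursor of the enkephalins, which fell by 0.97 (SE 0.14, adjusted p = 2.52e-05), and Ace, the enzyme that makes angiotensin II and breaks kinins down, which fell by 0.97 (SE 0.09, adjusted p = 2.51e-07). Egfr, the receptor of epidermal growth factor, fell by 0.93 (SE 0.10, adjusted p = 1.25e-06). The kinase Btk (−0.93) and the folate receptor Folr2 (−0.91), which macrophages express, fell, and Btk is also a gene of B cells, whose markers were uneven between the arrays. In wild-type mice Penk changed by −1.04, Ace by −0.99 and Egfr by −0.79. When single arrays were left out, Btk did not pass without cold replicate 1, 2 or 5 or warm replicate 1 or 2 (adjusted p 0.0513 to 0.065).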
